A study of Mus musculus with 12 samples.

Results

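Transcripts of 44 genes of DNA replication and nucleotide supply were followed in blood stem cells and progenitors sorted from the livers of mouse fetuses. The genes were taken by name: the origin recognition subunits Orc1 to Orc6 with Cdc6, Cdt1 and Gmnn, the helicase ring Mcm2 to Mcm7, the helicase activators Mcm10, Gins1 to Gins4, Cdc45 and Cdc7, the polymerase genes Pola1, Pola2, Prim1, Pold1, Pold2, Pold3, Pole and Pole2, the clamp Pcna with its loaders Rfc1 to Rfc5, the single-strand binding genes Rpa1 to Rpa3, Fen1 and Lig1, and Rrm1, Rrm2 and Tyms. All 44 were found among the 24054 genes of the deposited tables, and all 44 passed the filter on low counts in each comparison. RNA sequencing was done on 12 libraries from fetuses at E13.5, with 3 libraries in each group. The labels do not say whether the 3 libraries of a group came from separate fetuses, so p-values measure the spread between these libraries, which may be technical.

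The LT-HSC mutants carried Setdb1 p/p with vav-cre, and the LT-HSC controls carried Setdb1 +/p, without vav-cre in control 1 and with it in controls 2 and 3. The MPP mutants also carried Setdb1 p/p with vav-cre, and the MPP controls carried Setdb1 +/p, without vav-cre in controls 1 and 2 and with it in control 3. Every control therefore also had 1 p allele, which the labels do not define. Setdb1 encodes a methyltransferase for lysine 9 of histone H3, and vav-cre is a Cre recombinase driven by regulatory sequence of the blood cell gene Vav1. LT-HSC (long-term haematopoietic stem cells) were LSK cells, early blood cells that lack lineage markers and carry Sca-1 and Kit, with CD150 and without CD48. MPP (multipotent progenitors) were LSK cells with CD48 and without CD150. Between 500 and 1000 LT-HSC or 20000 MPP were sorted for a sample.

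Total expected counts lay between 10119416 and 14113198 per library. In controls the sort markers followed the gates: the CD150 gene Slamf1 was higher in LT-HSC than in MPP by 4.35 on the log2 scale, and Cd48 had a log2 difference of -3.98. Setdb1 itself had a log2 fold change of -0.27 (SE 0.165, adjusted p = 0.651) in LT-HSC mutants against LT-HSC controls and of -0.12 (SE 0.167, adjusted p = 0.598) in MPP mutants against MPP controls, by edgeR's quasi-likelihood test with Benjamini-Hochberg adjustment. The transcript level of the gene therefore did not separate mutants from controls, and the genotypes rest on the labels.

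Before a cell copies its DNA, the origin recognition complex binds start sites and, with Cdc6 and Cdt1, loads the Mcm2-7 ring as an inactive helicase, a step called licensing that geminin (Gmnn) blocks once S phase has begun. Cdc7 kinase, Cdc45, the GINS complex and Mcm10 then turn the ring into a moving helicase. Polymerase alpha and primase lay down primers, polymerases delta and epsilon extend them on the Pcna clamp, RPA covers single strands, and Fen1 and Lig1 join the fragments of the lagging strand, while ribonucleotide reductase (Rrm1 and Rrm2) and thymidylate synthase (Tyms) supply deoxynucleotides. Many of these genes are known targets of E2F transcription factors, which switch them on as cells enter S phase. Fetal liver is the tissue where blood stem cells multiply before birth.

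Promoter windows of RefSeq (build GRCm38.p6, 250 bases before to 50 bases after a gene's start) matched 37 of the 44 genes. Gins1, Gins2, Gins4, Gmnn, Mcm4, Pole and Rfc2 had no window. The windows were searched on both strands for 4 E2F-type words, TTTCCCGC, TTTGGCGC, TTTCGCGC and TTTGCCGC, with overlapping matches counted, and for the words CCAAT and TTTGAA. An E2F-type word stood in a window of 15 of the 37 genes (40.5%), against 704 of 27025 genes with a window (2.6%). CCAAT stood in 23 of the 37 genes (62.2%), against 41.1% of all genes, and TTTGAA in 6 (16.2%), against 20.2%. A match is a description of letters and not a bound site. The 250 bases before the start are shown for Orc1 and Orc5, licensing genes that were higher in MPP mutants than in MPP controls, for Mcm6, whose transcript level differed little between groups, and for Mcm7 and Pola1, which were lower in LT-HSC than in MPP in both genotypes. Capitals mark E2F-type words and CCAAT on either strand. The windows are chr4:108579204-108579453 on the plus strand for Orc1, chr5:22550339-22550588 on the minus strand for Orc5, chr1:128359706-128359955 on the minus strand for Mcm6, chr5:138171884-138172133 on the minus strand for Mcm7 and chrX:93632156-93632405 on the minus strand for Pola1.
Orc1: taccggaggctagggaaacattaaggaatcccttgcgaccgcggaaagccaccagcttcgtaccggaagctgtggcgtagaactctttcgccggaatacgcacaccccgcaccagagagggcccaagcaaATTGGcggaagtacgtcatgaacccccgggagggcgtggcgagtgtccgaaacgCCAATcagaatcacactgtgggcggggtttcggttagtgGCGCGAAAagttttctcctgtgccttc
Orc5: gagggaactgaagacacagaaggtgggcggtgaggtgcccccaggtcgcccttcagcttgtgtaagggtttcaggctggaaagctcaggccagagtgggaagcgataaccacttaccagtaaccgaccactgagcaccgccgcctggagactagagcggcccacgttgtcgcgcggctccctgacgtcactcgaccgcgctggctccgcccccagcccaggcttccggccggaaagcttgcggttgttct
Mcm6: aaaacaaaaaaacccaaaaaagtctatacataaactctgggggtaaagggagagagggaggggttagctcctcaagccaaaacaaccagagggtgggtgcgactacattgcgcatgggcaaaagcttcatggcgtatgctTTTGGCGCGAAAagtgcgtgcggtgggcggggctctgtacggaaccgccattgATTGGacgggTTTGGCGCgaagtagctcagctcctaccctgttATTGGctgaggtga
Mcm7: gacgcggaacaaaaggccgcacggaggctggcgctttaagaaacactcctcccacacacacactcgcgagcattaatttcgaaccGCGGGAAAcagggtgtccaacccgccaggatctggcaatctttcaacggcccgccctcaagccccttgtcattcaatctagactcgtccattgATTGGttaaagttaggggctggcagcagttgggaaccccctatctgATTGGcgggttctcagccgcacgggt
Pola1: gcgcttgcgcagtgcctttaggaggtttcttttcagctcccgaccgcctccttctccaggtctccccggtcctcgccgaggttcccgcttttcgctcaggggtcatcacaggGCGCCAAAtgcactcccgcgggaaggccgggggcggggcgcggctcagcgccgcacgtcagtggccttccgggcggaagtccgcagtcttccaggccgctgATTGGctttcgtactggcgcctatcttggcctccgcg
Orc1 held an E2F-type word at position -27 from the start, and Orc5 held neither word. Mcm6 held 3 E2F-type words, at -110, -106 and -47, of which the first pair overlap. Mcm7 held a word at -165 and another at 16, past the bases shown, and a further Mcm7 window held none. Pola1 held a word at -138.

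Levels between genes were compared in TPM, the deposited transcript level scaled for length and library size. Mcm6, a subunit of the helicase ring, and the clamp Pcna stood highest in every group. Mcm6 averaged 525 ± 40.8 TPM in LT-HSC mutants, 547 ± 15 in LT-HSC controls, 482 ± 30.2 in MPP mutants and 514 ± 59.4 in MPP controls (SD, n = 3 each). Pcna averaged 497 ± 36.9 TPM in LT-HSC mutants, 497 ± 16.8 in LT-HSC controls, 567 ± 13.6 in MPP mutants and 544 ± 34.2 in MPP controls. Within the ring the 6 subunits were not at equal TPM, and Mcm4 was the lowest, at 212 ± 18.4 TPM in LT-HSC mutants, 212 ± 11.6 in LT-HSC controls, 226 ± 6.13 in MPP mutants and 225 ± 8.85 in MPP controls.

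The origin recognition subunits were far lower and spread widely. Orc6, the smallest subunit, averaged 119 ± 14.7 TPM in LT-HSC mutants, 120 ± 4.30 in LT-HSC controls, 121 ± 4.66 in MPP mutants and 111 ± 8.56 in MPP controls. Orc1, the subunit whose protein comes and goes with the cell cycle in mammals, averaged 26.6 ± 7.25 TPM in LT-HSC mutants, 18.9 ± 3.07 in LT-HSC controls, 34.0 ± 6.20 in MPP mutants and 24.1 ± 2.24 in MPP controls. Gmnn, the inhibitor of Cdt1, stood above every ORC subunit, Cdc6 and Cdt1 in all 4 groups, with means from 196 TPM in LT-HSC mutants to 235 TPM in MPP mutants and MPP controls. Gins3 was the lowest of the helicase activators, at 28.1 TPM in LT-HSC mutants and 26.7 TPM in MPP controls. Its protein sits in the GINS complex beside Gins2, which had 144 TPM in LT-HSC mutants and 162 TPM in MPP controls. The Gins2 level is uncertain, since 70.7% of its exon bases overlap Gse1 on the other strand. Together the 44 genes held 0.979% of the expected counts in LT-HSC mutants, 0.970% in LT-HSC controls, 1.04% in MPP mutants and 1.04% in MPP controls.

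**Figure D1:**
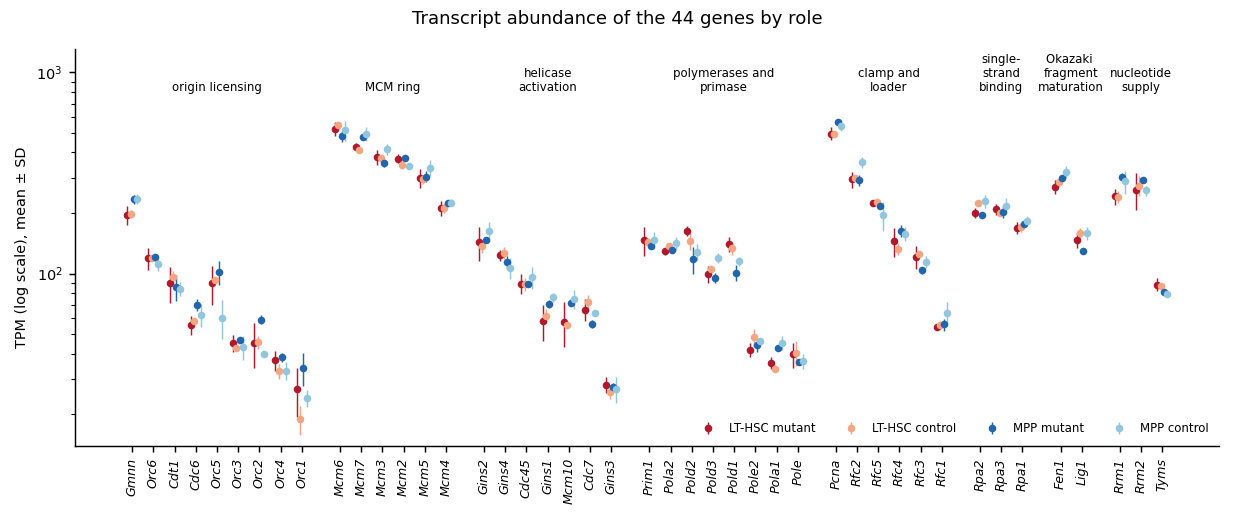
Mean TPM with its SD (n = 3 libraries, log axis) of the 44 genes, grouped by role and ordered within a role by the mean of MPP controls; the 4 colours stand for LT-HSC mutants, LT-HSC controls, MPP mutants and MPP controls. Mcm6 and Pcna lie highest, and Orc1 and Gins3 lie lowest, in every group.

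The effect of the genotype was tested first in MPP. In MPP mutants the origin recognition genes Orc1, Orc2, Orc4 and Orc5 were higher than in MPP controls, as were Mcm2 and the ribonucleotide reductase subunit Rrm2, while the polymerases, the clamp and its loaders, RPA and the fragment-joining genes had no called change. These 6 of 44 genes (13.6%) passed an adjusted p of 0.05 by edgeR's quasi-likelihood test with Benjamini-Hochberg adjustment over all genes, all of them higher. Over all 12392 genes tested 35.0% were called, 16.5% higher and 18.5% lower, so the share of the 44 that was called lay under the share of all genes, and the share called higher lay near it. In bulk RNA, fewer cells of a kind and less RNA per cell cannot be told apart.

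Counts are given from here on as CPM, counts scaled to library size with TMM factors over the 12 libraries, and fold changes are log2 with their standard error. Orc2 had 124, 147 and 141 CPM in MPP mutants 1 to 3, against 81.5, 85.9 and 83.3 CPM in MPP controls. All 3 mutants lay well above all 3 controls, which were nearly equal, and the log2 fold change was 0.69 (SE 0.0893, adjusted p = 0.00019). Orc5 had 108, 153 and 136 CPM in MPP mutants, against 89.8, 65.6 and 59.2 CPM in MPP controls. The groups did not overlap, control 1 was the highest control and mutant 1 the lowest mutant, and the log2 fold change was 0.86 (SE 0.162, adjusted p = 0.00196), the largest of the 44 genes. Orc1 had 50.1, 73.5 and 75.3 CPM in MPP mutants, against 47.0, 38.3 and 42.8 CPM in MPP controls. Mutant 1 lay just above control 1 and the other mutants well above, with a log2 fold change of 0.61 (SE 0.152, adjusted p = 0.00959). Orc4 had 79.1, 95.4 and 80.5 CPM in MPP mutants, against 75.2, 59.9 and 61.7 CPM in MPP controls, again without overlap, and a log2 fold change of 0.35 (SE 0.117, adjusted p = 0.0391).

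The other licensing genes leaned the same way without passing. The log2 fold changes were 0.22 for Orc3 (adjusted p = 0.15), 0.22 for Orc6 (adjusted p = 0.0880), 0.27 for the loading factor Cdc6 (adjusted p = 0.0918), 0.14 for Cdt1 and 0.11 for Gmnn, by edgeR's quasi-likelihood test. All 9 licensing genes had a positive estimate (median 0.27), in every scaling, filter and left-out library tried. The median of the 44 genes was 0.05 and that of all genes tested -0.01.

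**Figure D2:**
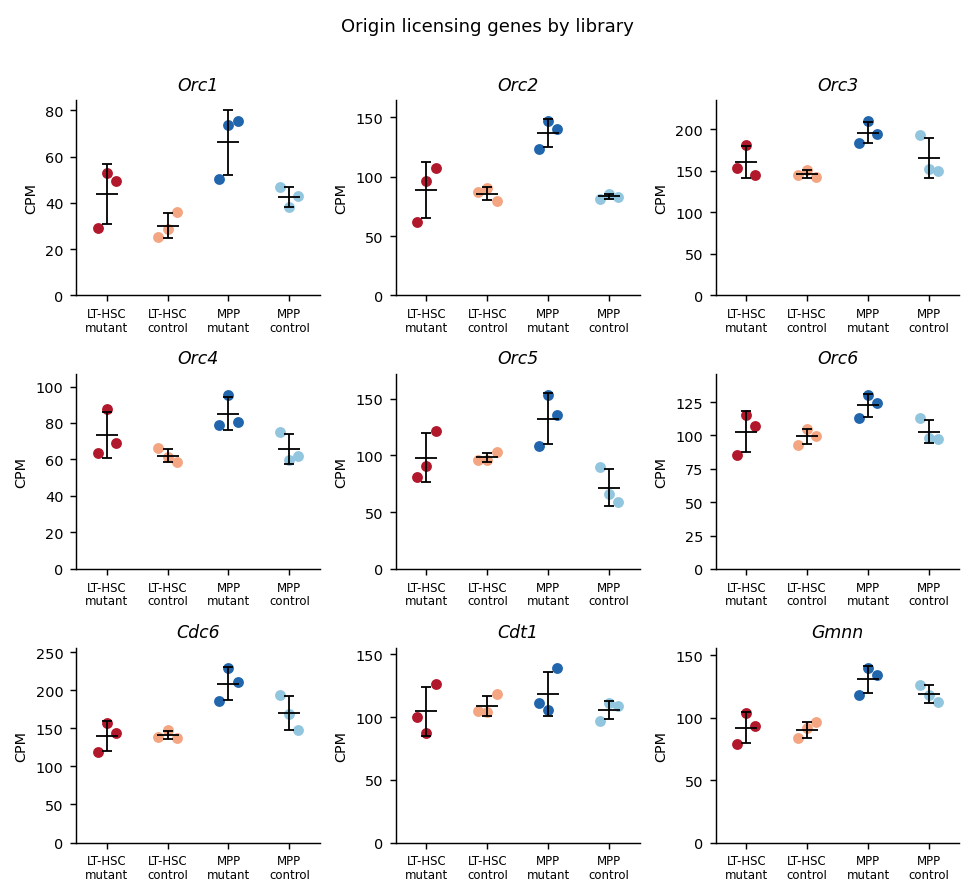
CPM of the 9 licensing genes in each library (points), with the mean and SD of each group (lines, n = 3), for LT-HSC mutants, LT-HSC controls, MPP mutants and MPP controls. The 3 MPP mutants lie above the 3 MPP controls for Orc1, Orc2, Orc4, Orc5 and Orc6. The LT-HSC mutants overlap the LT-HSC controls in every panel, and 8 of the 9 log2 fold changes in LT-HSC were positive.

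Downstream of licensing, Mcm2 had 791, 818 and 859 CPM in MPP mutants, against 690, 677 and 696 CPM in MPP controls. The groups were far apart relative to their spread, but the fold was small (log2 fold change 0.23, SE 0.0729, adjusted p = 0.0286). Its ring partners gave log2 fold changes from -0.11 (Mcm3) to 0.11 (Mcm4), and none passed, and the median of the 6 ring genes was 0.03. Of the 6 estimates 4 were positive, against 2 with upper-quartile scaling. None of the 7 helicase activators passed, with estimates from -0.07 for the kinase gene Cdc7 to 0.20 for Gins4.

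Among the 8 polymerase genes 4 estimates were positive, against 1 with upper-quartile scaling, and none passed. Pold3, an accessory subunit of polymerase delta, had 189, 187 and 178 CPM in MPP mutants, against 224, 214 and 198 CPM in MPP controls. The groups did not overlap, and the log2 fold change was -0.23 (SE 0.0866, adjusted p = 0.0636). For the clamp Pcna the log2 fold change was 0.17 (adjusted p = 0.155), and of its loaders Rfc5 had 0.26 (adjusted p = 0.0930) and Rfc2 -0.19 (adjusted p = 0.109) by edgeR's quasi-likelihood test. Rpa1 to Rpa3 lay between -0.13 and 0.04, Fen1 at 0.01 and the ligase Lig1 at -0.19.

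Of the nucleotide supply genes, Rrm2, the small subunit of ribonucleotide reductase, had 379, 418 and 415 CPM in MPP mutants, against 307, 329 and 340 CPM in MPP controls. Each mutant lay above each control, with a log2 fold change of 0.29 (SE 0.0820, adjusted p = 0.0189). For Rrm1, the large subunit, it was 0.18 (adjusted p = 0.189) and for Tyms 0.13 (adjusted p = 0.257). Of the 44 genes, 9 had all MPP mutants above all MPP controls and 4 (Pold3, Rfc2, Lig1 and Mcm3) had all below. Of the 12392 genes tested, 3295 (26.6%) had all above and 3019 (24.4%) had all below.

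These calls depended on scaling and on single libraries. With upper-quartile scaling 4 genes were higher (Orc1, Orc2, Orc5 and Rrm2) and 2 lower, Pold3 (log2 fold change -0.29, adjusted p = 0.0233) and Rfc2 (log2 fold change -0.25, adjusted p = 0.0428). Without 1 library the count lay between 2 and 11: it was 11 without control 1, 3 without control 2 and 3 without mutant 2, and without mutant 3 it was 2, Orc2 and Orc5, which were called without any one library. Against MPP control 3 alone, the control with vav-cre, the log2 fold change of Orc2 was 0.66 (adjusted p = 0.288) and that of Orc5 1.10 (adjusted p = 0.110) in a joint fit with the LT-HSC libraries, and 0 of the 44 genes passed. In that fit the spread comes from the other groups, since control 3 is assumed to vary as they do.

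The MPP mutants also differed from MPP controls in markers of other cells. Of 22 red cell genes 21 were called higher, and their summed level lay between 6398 and 9860 CPM in MPP mutants, against 2117 to 3234 CPM in MPP controls. The 16 lymphoid genes summed to 366 to 528 CPM in MPP mutants, against 960 to 1054 CPM in MPP controls, with 11 of 11 tested called lower. The 16 macrophage genes summed to 224 to 361 CPM in MPP mutants, against 985 to 1374 CPM in MPP controls, with 13 of 14 tested called lower. Hepatoblast genes summed to 110 to 144 CPM in MPP mutants, against 292 to 616 CPM in MPP controls (8 of 16 tested lower), and megakaryocyte genes to 179 to 235 CPM in MPP mutants, against 369 to 403 CPM in MPP controls (4 of 12 tested lower). Granulocyte and monocyte genes summed to 2897 to 3729 CPM in MPP mutants, against 3445 to 4379 CPM in MPP controls (6 of 17 higher and 6 lower). The 9 sort and stem cell markers summed to 2215 to 2545 CPM in MPP mutants, against 2912 to 3067 CPM in MPP controls, with 5 called lower. No red cell marker was at 0 in every library of either group, while Vsig4 was at 0 in every MPP mutant and Cd3e in every MPP library. The part of these cell markers in the Orc, Mcm2 and Rrm2 values was not tested.

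Reads from overlapping exons on opposite strands cannot be separated with a kit that does not keep the strand. Orc2 shares 24% of its exon bases with Nif3l1 on the other strand, and Nif3l1 had a log2 fold change of 0.16 in MPP mutants (adjusted p = 0.279 by edgeR's quasi-likelihood test). Orc4 shares 9.48% with Acvr2a (log2 fold change -0.03), and Orc5 shares 4.28% with Gm15421 on its own strand (log2 fold change 0.42, adjusted p = 0.101). Orc6 shares 7.14% with Vps35 on the other strand (log2 fold change 0.20, adjusted p = 0.167). Rfc2 shares 19.1% with Lat2 (log2 fold change -0.93, adjusted p = 0.00269) and Rfc5 shares 15.4% with Wsb2 (log2 fold change 0.74, adjusted p = 0.0102), so the values of Rfc2 and Rfc5 are uncertain.

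**Figure D3:**
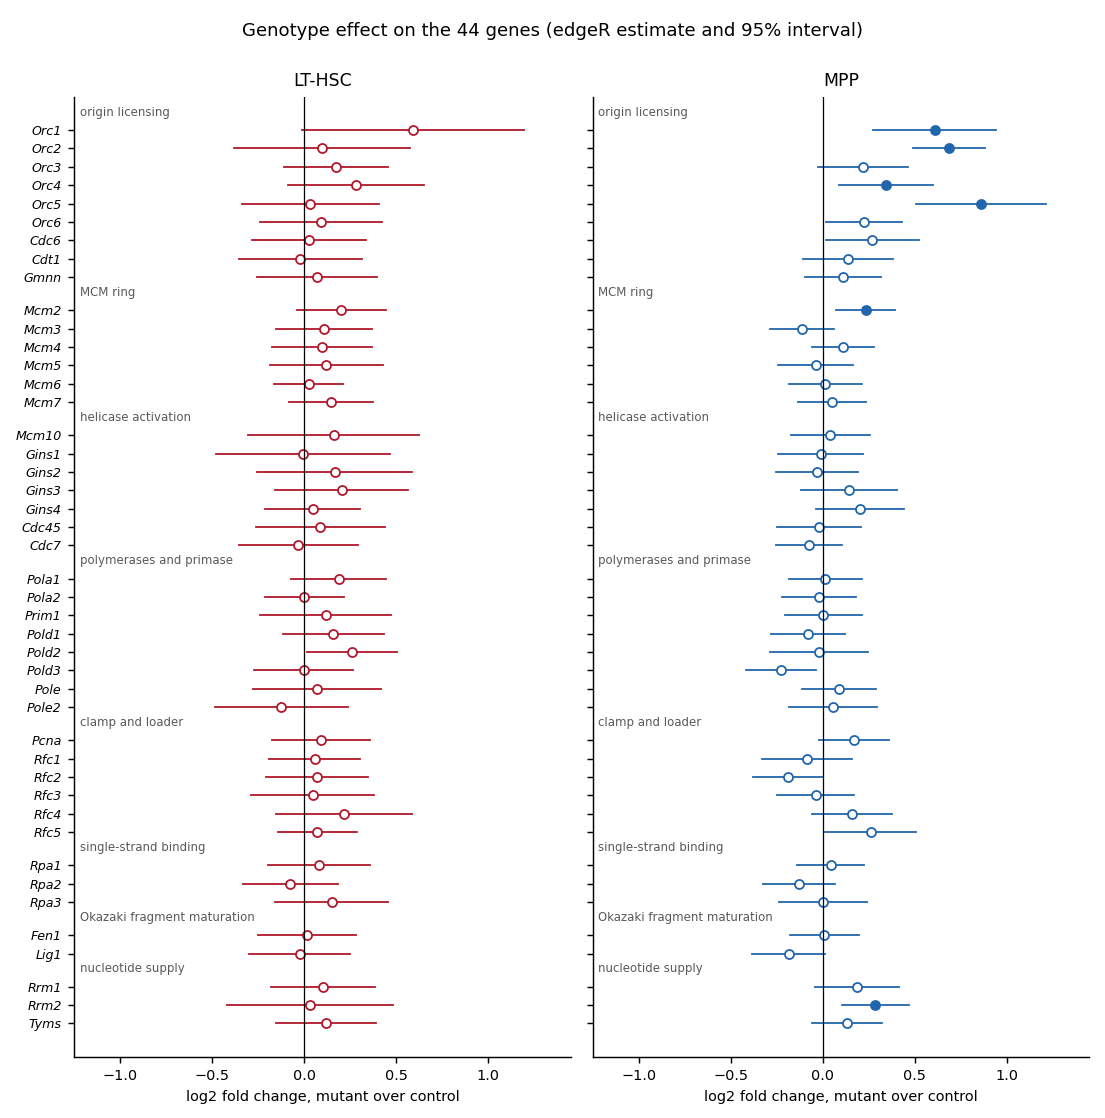
Log2 fold change of mutants over controls with its 95% interval from edgeR, for the 44 genes in LT-HSC (left) and MPP (right); filled points passed an adjusted p of 0.05. In MPP the 6 filled points are Orc1, Orc2, Orc4, Orc5, Mcm2 and Rrm2, and in LT-HSC no point is filled.

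In LT-HSC none of the 44 genes passed the same test between mutants and controls. Over all 12847 genes tested 0.420% were called, 0.257% higher and 0.163% lower, so few calls were made for any genes. DESeq2 also called 0 of the 44. By edgeR 1 of the 44 had an unadjusted p under 0.05, against 1221 of the 12847 genes tested. That gene was Pold2, a small subunit of polymerase delta, with 133, 133 and 143 CPM in LT-HSC mutants, against 121, 124 and 106 CPM in LT-HSC controls. The groups did not overlap, and the log2 fold change was 0.26 (SE 0.105, adjusted p = 0.494). Mcm2 was the other gene with all mutants above all controls, and no gene had all below. Of the 12847 genes tested, 885 (6.89%) had all above and 1231 (9.58%) had all below.

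Orc1 had the largest estimate, with 29.1, 53.0 and 49.5 CPM in LT-HSC mutants, against 25.5, 28.6 and 36.1 CPM in LT-HSC controls. Mutants 2 and 3 lay above every control and mutant 1 among them, and the log2 fold change was 0.59 (SE 0.259, adjusted p = 0.534), of a size with that in MPP. Orc2 had 62.2, 96.6 and 107.5 CPM in LT-HSC mutants, against 87.1, 90.1 and 79.5 CPM in LT-HSC controls. The mutants lay on both sides of the controls (log2 fold change 0.10, SE 0.206), and the 95% interval of -0.38 to 0.57 includes 0 and ends below the estimate in MPP. Orc5 had 80.7, 91.0 and 121.9 CPM in LT-HSC mutants, against 96.1, 95.7 and 103 CPM in LT-HSC controls, with a log2 fold change of 0.03 and an interval of -0.34 to 0.41. For 43 of the 44 genes the interval lay within a change of 1 log2 unit in either direction, Orc1 being the exception.

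Estimates were positive for 37 of the 44 genes, with a median of 0.09, against 0.03 for all genes. The lean rested on 1 library. LT-HSC mutant 2 was the highest of its group for 36 of the 44 genes, and without it the median was -0.03 and 16 estimates were positive. With upper-quartile scaling 29 were positive. LT-HSC mutant 2 also had 1637 CPM of macrophage genes, where the other LT-HSC mutants had 92.8 and 250 CPM and the LT-HSC controls 1096 to 1656 CPM, and 6727 CPM of mitosis genes, where the other mutants had 4846 and 5690 CPM and the controls 4632 to 5346 CPM. The part of these in the values of the library was not tested.

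The difference between the genotype effects in LT-HSC and in MPP was tested as an interaction over all 12 libraries. None of the 44 genes passed, against 0.377% of 13249 genes (0.226% higher and 0.151% lower). DESeq2 called 0 of the 44. By edgeR 2 of the 44 genes had an unadjusted p under 0.05, against 1637 of the 13249 genes tested. These 2 were Orc5, with a difference of -0.89 in log2 fold change (SE 0.260, adjusted p = 0.173), and Orc2 with -0.66 (SE 0.226, adjusted p = 0.244). Without LT-HSC mutant 3, which had the highest Orc2 and Orc5 of its group, both were called. For Orc1 the difference was -0.09 (SE 0.319). An effect of the genotype on Orc2 or Orc5 in MPP only is therefore not shown by this test.

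The cell types were compared next, LT-HSC over MPP. In controls 18 of the 44 genes were lower in LT-HSC than in MPP and only Orc5 was higher, and the lower ones came from every role of the fork, from the licensing genes Orc1 and Gmnn through the Mcm ring to Rrm1. Of the 44 genes 43.2% were called by edgeR's quasi-likelihood test, against 38.5% of the 12834 genes tested. The 18 lower genes were 40.9% of the 44, against 18.0% of all genes called lower, and the 1 higher gene was 2.27%, against 20.5%. The median log2 difference was -0.20 over the 44 genes and 0.01 over all genes, and 36 of 44 estimates were negative. Of these controls, LT-HSC controls 2 and 3 and MPP control 3 carried vav-cre, and the others did not. The part of vav-cre in these differences was not tested. Sort size went with cell type in both genotypes, at 500 to 1000 LT-HSC against 20000 MPP, and cannot be told apart from it.

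Of the licensing genes, Gmnn had 83.7, 91.5 and 96.4 CPM in LT-HSC controls, against 126.6, 118.3 and 112.3 CPM in MPP controls, with a log2 difference of -0.39 (SE 0.0924, adjusted p = 0.00841). Orc1 had a log2 difference of -0.50 (SE 0.154, adjusted p = 0.0267), and was not called in a joint fit of the 12 libraries, nor without LT-HSC control 1 or 2 or MPP control 1 or 3. Orc5 went the other way, with 96.1, 95.7 and 103 CPM in LT-HSC controls, against 89.8, 65.6 and 59.2 CPM in MPP controls (log2 difference 0.46, SE 0.145, adjusted p = 0.0293). It too was not called in the joint fit, nor without LT-HSC control 1, 2 or 3 or MPP control 2 or 3. The same MPP controls enter the Orc1 and Orc5 comparisons of genotype above, so those results are not independent of these.

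In the Mcm ring 4 of 6 genes were lower, Mcm7 most. Mcm7 had 510, 504 and 523 CPM in LT-HSC controls, against 753, 675 and 637 CPM in MPP controls, with no overlap and a log2 difference of -0.42 (SE 0.0846, adjusted p = 0.00362). Mcm5 had 487, 559 and 556 CPM in LT-HSC controls, against 757, 643 and 637 CPM in MPP controls (log2 difference -0.34, adjusted p = 0.0188). Mcm3 had 550, 575 and 581 CPM in LT-HSC controls, against 757, 678 and 674 CPM in MPP controls (log2 difference -0.30, adjusted p = 0.0150). In both genes MPP control 1 stood above the rest and the groups did not overlap. Mcm4 was at -0.24 (adjusted p = 0.0337), while Mcm2 was at -0.15 and Mcm6 at -0.06. Mcm6, with 823, 857 and 821 CPM in LT-HSC controls, against 768, 909 and 950 CPM in MPP controls, overlapped, although its protein sits in the same ring as Mcm7. Of Mcm7, 10.8% of the exon bases overlap Ap4m1 on the other strand.

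Mcm10, a factor that helps turn the ring into an active helicase, had the largest difference of the 44 genes, with 99.8, 105.8 and 102.2 CPM in LT-HSC controls, against 171, 159 and 138 CPM in MPP controls (log2 difference -0.60, SE 0.0982, adjusted p = 0.0012). Of the GINS genes, Gins1 had 27.8, 34.5 and 32.6 CPM in LT-HSC controls, against 46.4, 42.0 and 42.6 CPM in MPP controls (log2 difference -0.46, adjusted p = 0.0165). Gins2 was also lower (-0.40, adjusted p = 0.0215), while Gins3 was at -0.19 and Gins4 at 0.10. Of Gins2, 70.7% of the exon bases overlap Gse1 on the other strand, so its value is uncertain. Gse1 went the other way, with a log2 difference of 0.52.

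Pola1, the catalytic subunit of the primer-making polymerase alpha, had 96.5, 101.4 and 94.3 CPM in LT-HSC controls, against 154.9, 150.9 and 133.5 CPM in MPP controls. Its log2 difference of -0.58 (SE 0.0904, adjusted p = 0.000869) had the smallest p of the 44 genes. Pold3 had 166, 171 and 165 CPM in LT-HSC controls, against 224, 214 and 198 CPM in MPP controls, without overlap (log2 difference -0.34, SE 0.0837, adjusted p = 0.0107). By contrast, Pold1, the catalytic subunit of polymerase delta, was at 0.06, Pold2 at 0.02 and Pole, the catalytic subunit of polymerase epsilon, at -0.02, none of them called.

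At the clamp, Pcna had 284, 319 and 309 CPM in LT-HSC controls, against 401, 359 and 355 CPM in MPP controls (log2 difference -0.28, SE 0.0869, adjusted p = 0.0269). Of the loader genes, Rfc2 had 216, 227 and 236 CPM in LT-HSC controls, against 326, 286 and 291 CPM in MPP controls (log2 difference -0.41, adjusted p = 0.00488). Rfc4 had 70.0, 83.6 and 80.8 CPM in LT-HSC controls, against 113.9, 98.7 and 97.4 CPM in MPP controls (log2 difference -0.40, adjusted p = 0.0148). None of these groups overlapped. Rfc1 was lower too (-0.35, adjusted p = 0.0348), and Rfc3 (-0.03) and Rfc5 (0.06) were not called. Rfc2 again shares exons with Lat2, whose log2 difference was -3.36. Lat2 had 2.51, 4.12 and 3.16 CPM in LT-HSC controls, against 35.1, 35.8 and 30.3 CPM in MPP controls. Rfc4 shares 13.4% of its exon bases with Eif4a2 on the other strand, whose log2 difference was 0.30, so the Rfc4 value is uncertain too.

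Of the single-strand binding genes, Rpa1 had 253, 293 and 274 CPM in LT-HSC controls, against 353, 315 and 319 CPM in MPP controls (log2 difference -0.26, SE 0.0894, adjusted p = 0.0414). The flap nuclease gene Fen1 had 325, 313 and 327 CPM in LT-HSC controls, against 436, 386 and 383 CPM in MPP controls (log2 difference -0.32, SE 0.0836, adjusted p = 0.0142). Rrm1 had 534, 522 and 484 CPM in LT-HSC controls, against 792, 649 and 614 CPM in MPP controls (log2 difference -0.41, SE 0.106, adjusted p = 0.0125). Its partner Rrm2 was at -0.07 and Tyms at -0.03, so the subunits of ribonucleotide reductase did not move alike in this comparison, though the difference between them was not tested. Over the 44 genes 25 had all LT-HSC controls below all MPP controls and 1, Orc5, had all above. Of the 12834 genes tested, 3160 (24.6%) had all below and 3404 (26.5%) had all above.

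Markers of other cells also differed between the control cell types. Red cell genes summed to 3975 to 5822 CPM in LT-HSC controls, against 2117 to 3234 CPM in MPP controls, with 15 of 22 called higher. Hepatoblast genes summed to 588 to 1942 CPM in LT-HSC controls, against 292 to 616 CPM in MPP controls, with 18 of 19 called higher. Megakaryocyte genes summed to 1041 to 1327 CPM in LT-HSC controls, against 369 to 403 CPM in MPP controls, with 12 of 14 called higher. Macrophage genes summed to 1096 to 1656 CPM in LT-HSC controls, against 985 to 1374 CPM in MPP controls (9 of 14 tested higher and 2 lower). Granulocyte and monocyte genes summed to 849 to 2066 CPM in LT-HSC controls, against 3445 to 4379 CPM in MPP controls (0 of 17 higher and 8 lower). Lymphoid genes summed to 238 to 271 CPM in LT-HSC controls, against 960 to 1054 CPM in MPP controls, with 11 of 11 tested called lower; Dntt, Lef1 and Pax5 were at 0 in every LT-HSC control. The part of these markers in the replication gene values was not tested.

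When 1 library was left out, 8 of the 44 genes passed without LT-HSC control 1, and between 13 and 17 passed without each of the others. The 8 were Fen1, Gmnn, Mcm10, Mcm7, Pola1, Pold3, Rfc2 and Rrm1. Of the 18 lower genes 13 had a promoter window, and an E2F-type word stood in 6 of them (Mcm3, Mcm5, Mcm7, Orc1, Pola1 and Pold3), against 9 of the 23 uncalled genes with a window.

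**Figure D4:**
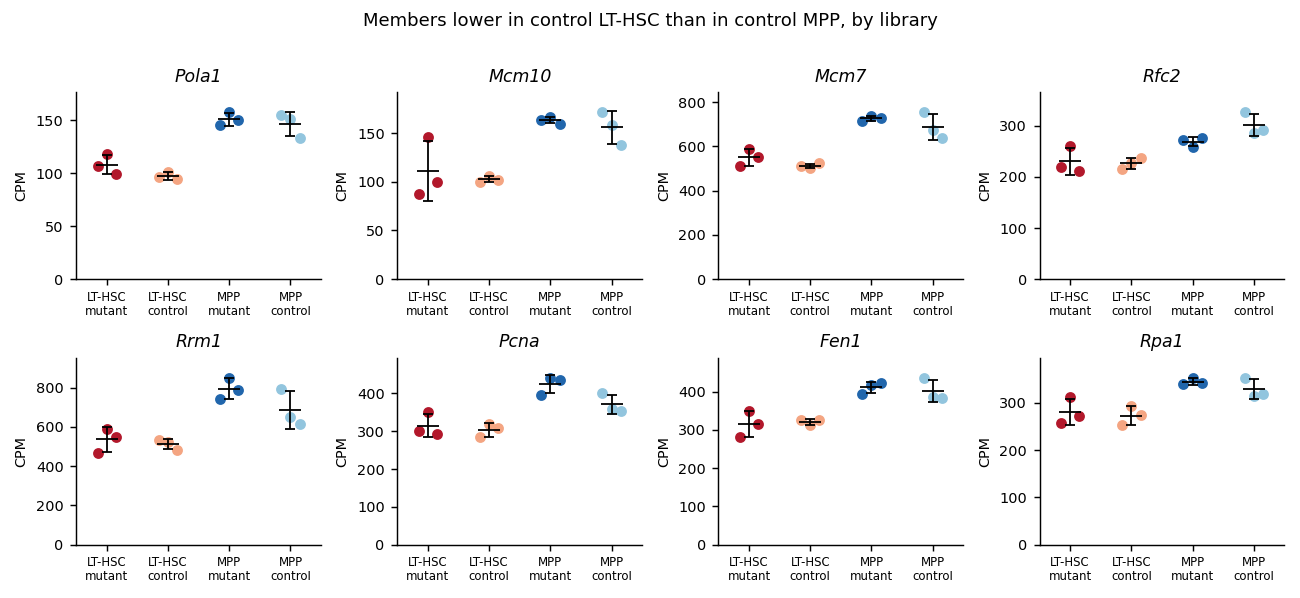
CPM in each library (points), with the mean and SD of each group (lines, n = 3), of 8 genes called lower in control LT-HSC than in control MPP, in LT-HSC mutants, LT-HSC controls, MPP mutants and MPP controls. LT-HSC controls lie below MPP controls in each panel, and LT-HSC mutant 2 is the highest LT-HSC mutant in each.

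In mutants 5 of the 44 genes were called lower in LT-HSC than in MPP and none higher. These 11.4% stood against 22.8% of 12452 genes called, 7.98% lower and 14.9% higher. Pola1 had 106.4, 117.6 and 99.6 CPM in LT-HSC mutants, against 145.3, 157.1 and 149.6 CPM in MPP mutants (log2 difference -0.43, SE 0.0987, adjusted p = 0.0234). Rrm1 had 467, 590 and 550 CPM in LT-HSC mutants, against 743, 849 and 789 CPM in MPP mutants (log2 difference -0.51, SE 0.122, adjusted p = 0.0260). The groups did not overlap for either gene, nor for the other 3 genes.

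Cdc6, which loads the ring together with Cdt1, had 118.9, 157.0 and 144.0 CPM in LT-HSC mutants, against 186.2, 228.6 and 211.1 CPM in MPP mutants (log2 difference -0.52, SE 0.141, adjusted p = 0.0392). Mcm7 had 513, 590 and 552 CPM in LT-HSC mutants, against 714, 738 and 728 CPM in MPP mutants (log2 difference -0.34, SE 0.0948, adjusted p = 0.0405). Pcna had 301, 351 and 293 CPM in LT-HSC mutants, against 397, 442 and 436 CPM in MPP mutants (log2 difference -0.38, SE 0.106, adjusted p = 0.0422). For each of the 3 genes the lowest MPP mutant lay above the highest LT-HSC mutant.

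The estimates themselves were negative for 40 of the 44 genes, with a median of -0.20, against 0.00 for all genes, and the median stood close to the one in controls. All LT-HSC mutants lay below all MPP mutants for 21 of the 44 genes and above for 1, Pold1. Of the 12452 genes tested, 3182 (25.6%) had all below and 2724 (21.9%) had all above. Orc5, called higher in LT-HSC in controls, had a log2 difference of -0.38 in mutants (SE 0.195, adjusted p = 0.192), with overlapping groups. Calls numbered 0 without any one of the MPP mutants, 1 (Rrm1) without LT-HSC mutant 1, 18 without LT-HSC mutant 2 and 9 without LT-HSC mutant 3. They numbered 17 in the joint fit of 12 libraries and 8 by DESeq2. Megakaryocyte genes summed to 747 to 1323 CPM in LT-HSC mutants, against 179 to 235 CPM in MPP mutants. Red cell genes summed to 3869 to 7273 CPM in LT-HSC mutants, against 6398 to 9860 CPM in MPP mutants. In the same order, lymphoid genes summed to 122 to 181 against 366 to 528 CPM (5 of 6 tested lower). Granulocyte and monocyte genes summed to 926 to 1230 against 2897 to 3729 CPM (2 of 17 higher and 8 lower). Macrophage genes summed to 92.8 to 1637 against 224 to 361 CPM, and hepatoblast genes to 104 to 520 against 110 to 144 CPM. The part of these cell markers in these values was not tested.

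**Figure D5:**
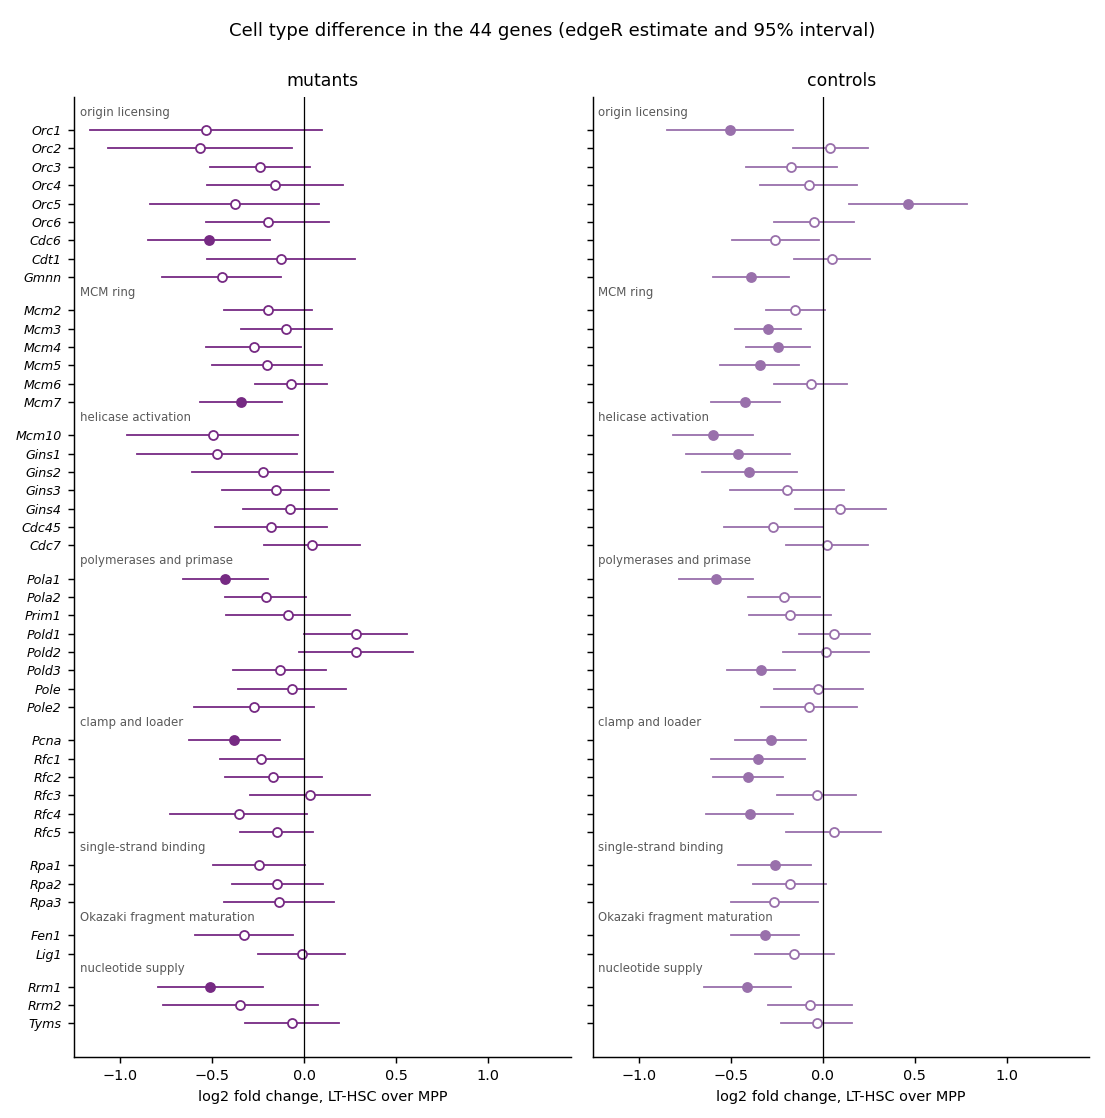
Log2 difference of LT-HSC over MPP with its 95% interval from edgeR for the 44 genes, in mutants (left) and controls (right); filled points passed an adjusted p of 0.05. Most estimates lie left of 0 in both panels, with 5 filled in mutants and 19 in controls, where Orc5 is the filled point right of 0.

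Within each group the 44 genes tended to move together from library to library. Over the 12 libraries the median Pearson correlation of log2 CPM between 946 pairs of these genes was 0.574, and with group means removed it was 0.523, where pairs share the libraries, their depth and their scaling. MPP control 1 was the highest of its group for 35 of the 44 genes and MPP mutant 1 the lowest of its group for 33. Summed over the 44 genes, the MPP mutants had 10960, 11540 and 11610 CPM, against 11250, 10380 and 10280 CPM in MPP controls. In TPM the sums were 7361, 7308 and 7448 in MPP mutants, against 7932, 7477 and 7321 in MPP controls. The groups overlapped on both scales, with the mutant mean above the control mean in CPM and below it in TPM.

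Genes around the same pathway were read from 6 further lists. Of 24 other replication fork genes, 5 were higher and 2 lower in MPP mutants than in MPP controls, among them the fork protection factor Donson (log2 fold change 0.70, adjusted p = 0.0105), the polymerase delta subunit Pold4 (-0.66, adjusted p = 0.00174) and Timeless (-0.30, adjusted p = 0.0171) by edgeR's quasi-likelihood test. Of 37 other genes of nucleotide synthesis, 17 were higher and 5 lower, led by the guanylate kinase Guk1 (0.75, adjusted p = 0.000612) and the folate enzymes Mthfd2 (0.73, adjusted p = 0.000795) and Mthfd1 (0.60, adjusted p = 0.000852). Beside the background of 16.5% higher, 45.9% of that list was called higher. Of 26 genes of E2F and G1/S control 6 were higher and 1 lower, with Rb1, the retinoblastoma gene, at 1.20 (adjusted p = 0.000176), E2f4 at 0.85 (adjusted p = 0.000294) and cyclin A2 (Ccna2) at 0.52 (adjusted p = 0.00700).

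Of 25 genes of G2 and mitosis 10 (40%) were higher and 0 lower in MPP mutants, against 16.5% higher and 18.5% lower over all genes, including Ube2c (0.59), Plk1 (0.54) and Cdc20 (0.59). The list summed to 7664, 8924 and 8256 CPM in MPP mutants, against 7236, 6746 and 6686 CPM in MPP controls. Of 18 genes of S-phase chromatin and checkpoints, the histone chaperone gene Asf1a was higher (0.64) and Uhrf1 lower (-0.33), and of 5 tested genes of CDK inhibitors none was called. In LT-HSC mutants against LT-HSC controls no gene of the 6 lists was called. The estimates of all 25 mitosis genes were positive there (median 0.23), and the summed level was highest in LT-HSC mutant 2, as given above.

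Between control LT-HSC and control MPP the medians of 5 of the 6 lists were negative and that of the CDK inhibitor genes was positive (0.18). Over all genes 18.0% were called lower and 20.5% higher in this comparison. The mitosis genes were lower in LT-HSC for 22 of 25, such as Bub1b (-0.73), Top2a (-0.74) and Kif23 (-0.63). The other nucleotide synthesis genes were lower for 17 of 37, such as Prps2 (-1.06), Shmt1 (-0.82) and Atic (-1.20), and the fork genes for 8 of 24, such as Mcmbp (-1.31), Timeless (-0.49) and Top2b (-0.47). Of the E2F and G1/S genes 9 were lower and 3 higher, with Cdk6 (-1.65), cyclin D1 (Ccnd1, -0.94) and Cks1b (-0.50) lower, and of the S-phase chromatin genes 6 were lower, such as Usp1 (-0.73), Chek1 (-0.58) and Uhrf1 (-0.36). The CDK inhibitor genes Cdkn1c (1.38, adjusted p = 0.00186) and Cdkn2d (0.62, adjusted p = 0.00229) were higher in LT-HSC.

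In mutants, where 7.98% of all genes were called lower and 14.9% higher, 5 of the 25 mitosis genes were lower in LT-HSC than in MPP (Mki67 at -0.71, Kif11 at -0.49 and Top2a at -0.64 had the smallest p), as were 12 nucleotide synthesis genes, with Pfas (-0.89), Cad (-0.69) and Atic (-0.96) leading and 1 gene higher. Of the fork genes 4 were lower, with Mcmbp at -1.26, Wdhd1 at -0.36 and Top1 at -0.36. Cdk6 was lower (-1.55) and Ccnd3 higher (0.42) among the E2F and G1/S genes, the checkpoint kinase gene Atr was lower (-0.52), and Cdkn2d (0.89) and Cdkn1c (1.77) were higher in LT-HSC mutants than in MPP mutants.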

How the data were processed

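RNA was sequenced from 6 LT-HSC and 6 MPP libraries made from 10 ng of RNA, per the labels' protocols. Per the submitters' processing notes, STAR, RSEM and the mm10 build were used, with versions not given in the sources used here. RSEM's expected count per gene is deposited for each library, per the file headers, with fractions where a read was shared between genes. The deposited TPM values, scaled per length per the file headers, were used for levels between genes. The deposited FPKM values, per the file headers, were not used.

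After rounding to whole numbers, the expected counts entered edgeR's quasi-likelihood test (edgeR 4.0.16, R 4.3.3), with TMM scaling, the filterByExpr filter (minimum count 10, minimum total 15) and Benjamini-Hochberg adjustment over all genes tested, with a threshold of 0.05. Groups came from titles and genotype labels. Each comparison was fitted on its 6 libraries, and the interaction on all 12. Standard errors are the fold change divided by the root of the F statistic. The scripts were tested on simulated data with known changes. Depth was 10119416 to 14113198 counts a library. Precision is limited by the spread between libraries of a group as well as by depth.

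The 44 genes, the lists and the tests were chosen with earlier results of these data known. All 44 genes could be named; values per library are given for the called genes with the smallest p, up to 12 per comparison, and for the first of each role, and others were given where they show a spread, chosen after their values were seen. Of each further list, up to 3 called genes with the smallest p are named. Alternatives were DESeq2 1.42.0, RLE and upper-quartile scaling, no filter, a replicate block, a joint fit, controls with vav-cre only, and leaving out each library. Titles number the replicates 1 to 3 without saying what a number stands for, and the deposited files carry a number other than the title's for 6 of the 12 libraries; title numbers were used throughout. Same-numbered LT-HSC mutants and controls deviated together only weakly (r across genes 0.108, 0.148 and 0.175). Each LT-HSC mutant still correlated most with the LT-HSC control of its own number, while no MPP mutant did so with its MPP control. The replicate block changed no call among the 44 genes in LT-HSC mutants against LT-HSC controls. No pair of replicates was identical: chi-square per gene between replicates lay between 5.22 and 50. RefSeq sequences and coordinates are of GRCm38.p6, and exon overlaps are from GENCODE M21.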

Additional observations from a re-analysis of the deposited data

How the results depend on the processing

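The count of the 44 genes called in MPP mutants against MPP controls was 6, with the same genes under DESeq2, RLE scaling and no filter. The count was also 6 with upper-quartile scaling, but there Pold3 and Rfc2 were called lower and Mcm2 and Orc4 were not called. It was 3 in the joint fit of 12 libraries and 0 in the joint fit with vav-cre controls alone, and leaving out 1 library gave 2 to 11. In control LT-HSC against control MPP the count was 19, with 15 to 19 under the other settings and 8 to 17 without 1 library. A fit with vav-cre controls alone was not made for that comparison. In mutant LT-HSC against mutant MPP the count was 5. It was 8 with DESeq2, 17 in the joint fit, and 0 to 18 without 1 library. In LT-HSC mutants against LT-HSC controls it was 0 in every setting tried, and in the interaction it was 0 except for 2 without LT-HSC mutant 3, with a range of 0 to 2 over left-out libraries. No called gene changed sign in any setting. For moved counts the cause was not tested, beyond fewer libraries where libraries were left out. The replicate block gave 4 called genes in MPP mutants, 16 in control LT-HSC against MPP and 8 in mutant LT-HSC against MPP. Same-numbered libraries did not all deviate together in those comparisons (r from -0.263 to 0.153). Correlations this small cannot tell whether the numbers pair libraries. The block changed no other count. Replicate numbers are those of the titles, which differ from the numbers on 6 deposited files. In LT-HSC mutants against controls Orc1 had the largest standard error of the 44 genes (0.259).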
